A study of Mus musculus with 6 samples.

Results

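The autophagy machinery genes described here are 44 genes whose products build, load or regulate autophagosomes, of 39174 genes listed for mouse sciatic nerve. They were chosen by name: 43 were found by their symbol, and Atg101 was found by its gene identifier under the older symbol 9430023L20Rik. RNA sequencing had been done on whole sciatic nerves of 3 wild-type and 3 Plekhg5-/- mice, which the sample records call adult and the study text 12 months old. The study asked whether loss of Plekhg5, a guanine nucleotide exchange factor that had been tied to autophagy before, changes gene expression in peripheral nerve. The libraries are numbered 2, 4 and 5 for wild-type and 2, 3 and 5 for Plekhg5-deficient nerves, and the libraries were made from poly(A) RNA with a SENSE mRNA-Seq kit. Levels are FPKM, fragments per kilobase of transcript as a share of the library, scaled between libraries, so levels of different genes can be compared per length.

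In autophagy, a flat membrane called the phagophore grows around cytoplasm, closes into an autophagosome and fuses with lysosomes, where its content is broken down. The ULK kinase complex starts the process, and a class III PI3-kinase complex marks the membrane with a lipid that WIPI proteins read. ATG9 and ATG2 proteins serve the supply of lipids. A ubiquitin-like conjugation system attaches LC3 and GABARAP proteins to the membrane, where cargo receptors bind them. In Schwann cells, which wrap axons with myelin, autophagy is known for taking up myelin after nerve injury. Most steps are set by protein modification and membrane traffic, so transcript levels describe the supply of parts and not the flux through the pathway.

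None of the 44 genes passed the test between genotypes. All 44 were above the minimum of 0.1 FPKM as a mean in either genotype, and with an adjusted p from limma under 0.05 as the threshold 0 were lower and 0 were higher in Plekhg5-deficient nerves, where 0.0094% of the 21285 genes tested were lower and 0.0282% were higher. At an unadjusted p under 0.05 the counts were also 0 and 0, beside 2.69% of all genes lower and 2.41% higher. The lowest adjusted p of any of the 44 was 0.972 in limma, for Ulk2. In 2 genes, Ulk2 and Tfe3, all Plekhg5-deficient nerves were below all wild-type nerves, and in 0 genes were they all above, whereas over all genes 5.88% were separated with lower and 5.69% with higher values.

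The log2 fold changes, Plekhg5-deficient minus wild-type on the log2(FPKM + 1) scale, ran from -0.48 for Tfeb to 0.64 for Bnip3. This scale understates the change of genes with few FPKM. The median of the 44 was 0.094 and that of all genes tested was 0.0065, with 28 of the 44 above 0 and 16 below. With FPKM as deposited in place of scaled values the median over all genes moved by -0.10, the median of the 44 was -0.048, and 17 were above 0, so the sign of the median depended on the scaling. Measured against the median of all genes in the same setting, the 44 lay 0.088 higher with scaled values and 0.047 higher with values as deposited. For 40 of the 44, or 90.9%, the 95% interval of the difference lay within a 2-fold change of FPKM + 1 in either direction. The share of all genes tested was 74.5%. The exceptions among the 44 were Bnip3 (-0.25 to 1.52), Gabarapl1 (-0.57 to 1.01), Tfeb (-1.18 to 0.23) and Atg16l2 (-1.05 to 0.40). For genes with few FPKM, such as Atg9b at a mean of 0.336 FPKM, such an interval does not bound the change of FPKM itself to 2-fold.

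**Figure D1:**
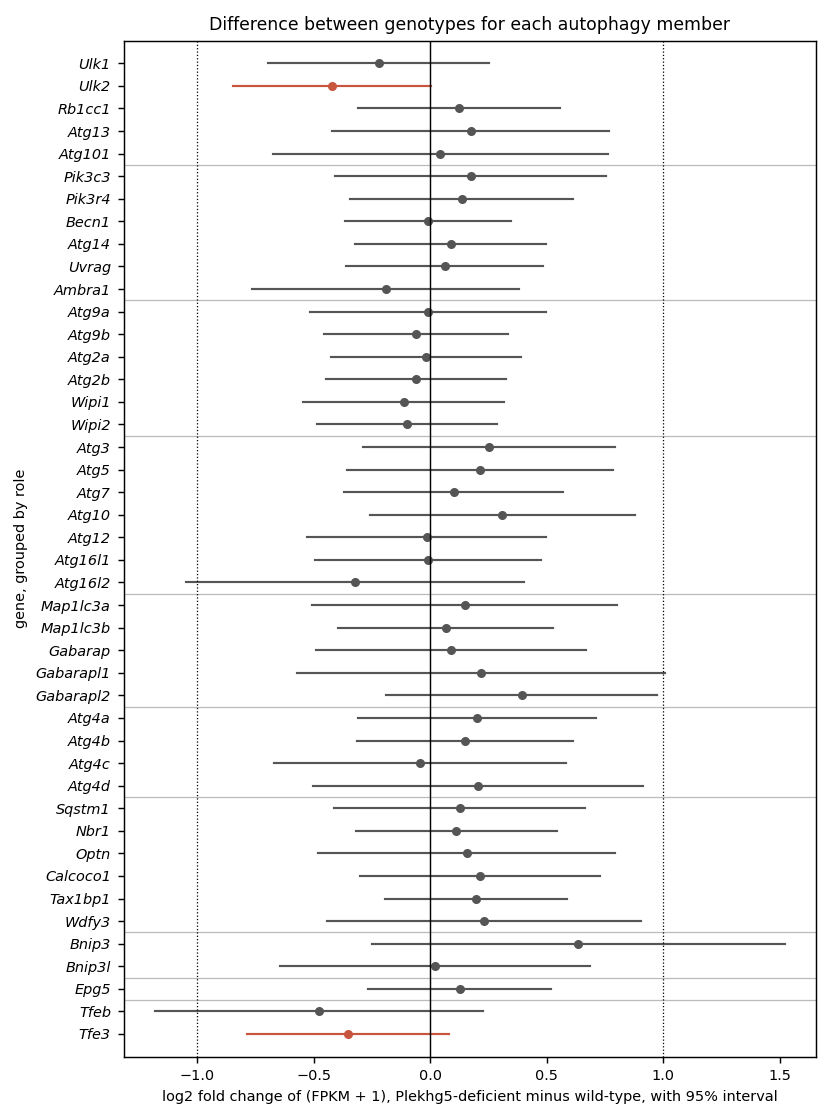
Log2 fold change of each of the 44 autophagy genes between Plekhg5-deficient and wild-type sciatic nerves on the log2(FPKM + 1) scale. Bars are the 95% interval from limma, and dotted lines stand at a 2-fold change of FPKM + 1. Points run from -0.48 (Tfeb) to 0.64 (Bnip3), every interval holds 0, and the genes without overlap between genotypes, Ulk2 and Tfe3, are drawn in red.

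The libraries themselves were checked by the gene that the mice lack. Plekhg5 had 3.65, 4.13 and 5.26 FPKM in the wild-type libraries 2, 4 and 5 and 0.141, 0.140 and 0.0521 FPKM in the Plekhg5-deficient libraries 2, 3 and 5 (log2 fold change -2.26 ± 0.18, SE, with a limma adjusted p of 0.0380). Leaving out any single library moved this adjusted p above the threshold, to between 0.0781 (without wild-type nerve 5) and 0.268 (without wild-type nerve 4), with fold changes from -2.35 to -2.14. The myelin genes that define Schwann cells were strongly expressed in every nerve. The summed level of 12 markers was 11122, 20114 and 12497 FPKM in wild-type nerves 2, 4 and 5. In Plekhg5-deficient nerves 2, 3 and 5 it was 19284, 19555 and 11390 FPKM. Wild-type nerves 2 and 5 and Plekhg5-deficient nerve 5 thus had lower sums than the other nerves. The part of this difference in the levels of the autophagy genes was not tested. Plekhg5-deficient nerve 5 had the highest value of all 14 skeletal muscle markers, all 7 slow muscle markers and all 9 measured erythroid markers, and Plekhg5-deficient nerve 3 had the lowest value of all 14 skeletal muscle and all 9 erythroid markers. T-cell markers summed to 123 FPKM and B-cell markers to 115 FPKM in wild-type nerve 5, against at most 9.21 and 5.69 FPKM in the others. In whole nerve, fewer cells of a type and less RNA per cell cannot be told apart.

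Mean levels over the 6 libraries ran from 0.336 FPKM for Atg9b to 602 FPKM for Gabarap, with a median of 10.5 FPKM. The LC3 and GABARAP genes, Sqstm1 and Bnip3 were the most abundant, the kinase, lipid and conjugation genes mostly lay between 2 and 27 FPKM, and the low end was held by Atg9b, Epg5 and Atg2b. The levels differed little between animals. The ratio of the highest to the lowest library had a median of 1.57 over the 44 genes, from 1.17 for Becn1 to 6.30 for Atg9b. It was under 2 for 75% of them, compared with 37.9% of all genes, where a gene at 0 in some library was not counted as under 2. All genes tested had a lower median level, 3.79 FPKM, and the part of level in this contrast was not tested. Of the 44, 11 had their highest value in Plekhg5-deficient nerve 2 (25.0%, against 12.03% of all genes), 13 in nerve 3 (29.5% against 19.7%) and 8 in nerve 5 (18.2% against 22.6%). For wild-type nerves 2, 4 and 5 the counts were 2 (4.55% against 10.1%), 3 (6.82% against 14.5%) and 7 (15.9% against 21.1%). The lowest value fell in Plekhg5-deficient nerve 5 for 13 genes (29.5% against 21.7%) and in wild-type nerve 5 for 12 (27.3% against 18.9%). Each other nerve was lowest for between 4 and 6 genes. The summed level of the 44 was 1869, 1713 and 1848 FPKM in wild-type and 1817, 2210 and 1993 FPKM in Plekhg5-deficient nerves. These ranges overlapped, with Plekhg5-deficient nerve 3 highest.

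**Figure D2:**
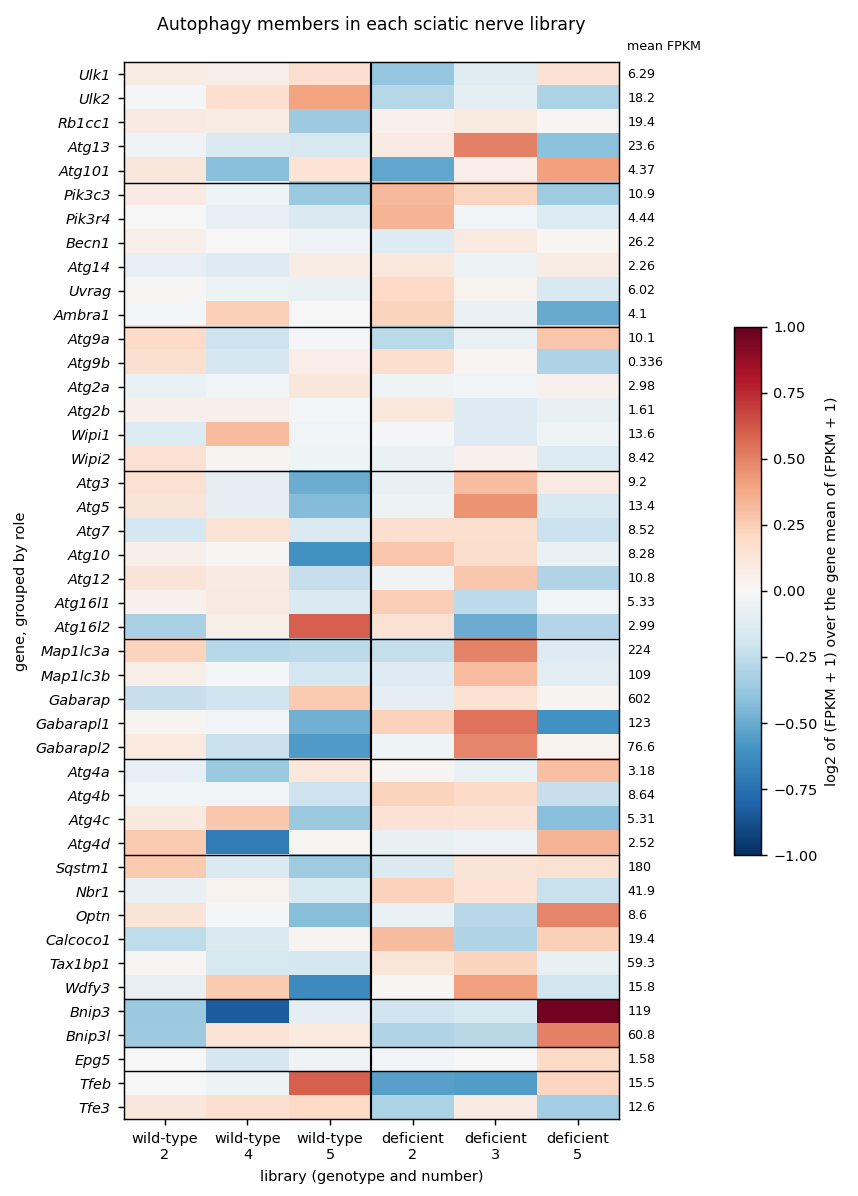
Each row is 1 of the 44 autophagy genes, grouped by role, and each column 1 library. Color gives the log2 of FPKM + 1 divided by the gene's mean of FPKM + 1 over the 6 libraries, and the mean FPKM stands at the right. Few rows split at the line between genotypes: Ulk2 and Tfe3 are lower in every Plekhg5-deficient nerve, and Bnip3 stands out in Plekhg5-deficient nerve 5.

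The initiation complex joins the kinases Ulk1 or Ulk2 with the scaffold Rb1cc1, also called FIP200, and with Atg13 and Atg101. Ulk2, on chromosome 11 of GRCm38 from 61775649 to 61855073, had 18.03, 20.6 and 24.4 FPKM in wild-type and 14.7, 16.9 and 14.4 FPKM in Plekhg5-deficient nerves. All Plekhg5-deficient nerves were thus below all wild-type nerves, and the gap was smallest from wild-type nerve 2 down to Plekhg5-deficient nerve 3. The mean of the Plekhg5-deficient nerves was 1.37-fold lower (15.4 ± 1.38 against 21.0 ± 3.22 FPKM, SD, n = 3 each). Its log2 fold change was -0.42 with a standard error of 0.18, and the 95% interval from -0.85 to 0.0016 just held 0. Without a single library the value lay between -0.52 and -0.31.

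Ulk1, the other kinase of the pair and known for receiving inhibitory signals from mTOR, had 6.68, 6.59 and 7.18 FPKM in wild-type and 4.58, 5.70 and 7.04 FPKM in Plekhg5-deficient nerves. Its genotypes overlapped through Plekhg5-deficient nerve 5, and the log2 fold change was -0.22 (standard error 0.20). In all 6 nerves Ulk2 had more FPKM than Ulk1. Atg13, the adaptor that holds the kinase to its complex, had the highest mean of the 5 genes over the 6 libraries, though not the highest value in each library, with 23.0, 21.2 and 21.0 FPKM in wild-type and 25.0, 33.9 and 17.6 FPKM in Plekhg5-deficient nerves. The Plekhg5-deficient values enclosed all wild-type values. Rb1cc1 lay between 14.9 and 20.9 FPKM and Atg101 between 2.75 and 6.15 FPKM in the 6 nerves, both with overlapping genotypes.

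The class III PI3-kinase complex holds the lipid kinase Pik3c3, its regulatory subunit Pik3r4, the scaffold Becn1, the autophagy-specific subunit Atg14, the alternative subunit Uvrag and the regulator Ambra1. Becn1 had 27.2, 26.0 and 25.5 FPKM in wild-type and 23.8, 27.9 and 26.5 FPKM in Plekhg5-deficient nerves. It was the steadiest of the 44 genes, and the difference of -0.01 on the log2 scale had a 95% interval from -0.37 to 0.35. Pik3c3 had 11.6, 10.6 and 8.21 FPKM in wild-type and 13.9, 12.8 and 8.30 FPKM in Plekhg5-deficient nerves, and in both genotypes the nerve numbered 5 was lowest. The log2 fold changes of the 6 genes ran from -0.19 (Ambra1) to 0.17 (Pik3c3).

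Membrane supply rests on the scramblases Atg9a and Atg9b, the lipid transfer proteins Atg2a and Atg2b, and Wipi1 and Wipi2, which read the lipid made by Pik3c3. Wipi1 had 12.2, 17.1 and 13.3 FPKM in wild-type and 13.4, 12.3 and 13.1 FPKM in Plekhg5-deficient nerves. Atg9a had 11.7, 8.66 and 10.1 FPKM in wild-type and 8.24, 9.64 and 12.5 FPKM in Plekhg5-deficient nerves. In both genes the genotypes overlapped, with wild-type nerve 4 the highest of all for Wipi1 and Plekhg5-deficient nerve 5 the highest for Atg9a. Atg9b stayed under 0.5 FPKM in every nerve, so that Atg9a made up nearly all of the Atg9 transcript per length. All 6 differences lay between -0.11 and -0.01 on the log2 scale, and 1 or 2 of them were above 0 when a library was left out, with array weights or with a replicate block.

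Conjugation uses the E1-like enzyme Atg7, the E2-like enzymes Atg3 and Atg10, the ubiquitin-like Atg12, its partner Atg5, and Atg16l1 or Atg16l2, which place the complex on the membrane. Atg5 had 14.7, 12.5 and 9.65 FPKM in wild-type and 12.9, 18.6 and 11.9 FPKM in Plekhg5-deficient nerves. Atg12 had 11.9, 11.5 and 9.07 FPKM in wild-type and 10.5, 13.3 and 8.58 FPKM in Plekhg5-deficient nerves. Both were highest in Plekhg5-deficient nerve 3 and overlapped between genotypes, as did the other 5 genes of the group. The 7 log2 fold changes ran from -0.32 (Atg16l2) to 0.31 (Atg10), with 4 above 0.

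The LC3 and GABARAP proteins are attached to the growing membrane and bind cargo receptors there. Their 5 genes had the highest median transcript level of the roles, at 123 FPKM. Gabarap, on chromosome 11 from 69991143 to 69994951, had 513, 525 and 720 FPKM in wild-type and 566, 670 and 615 FPKM in Plekhg5-deficient nerves. It was the highest of the 5 in each nerve and made up between 46.9% and 63.1% of the family's summed FPKM. The second in each nerve was Map1lc3a, with 262, 185 and 187 FPKM in wild-type and 190, 316 and 205 FPKM in Plekhg5-deficient nerves.

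Gabarapl1 had 125, 121 and 87.6 FPKM in wild-type and 144, 179 and 80.4 FPKM in Plekhg5-deficient nerves. Map1lc3b, the LC3 form most used as an autophagosome marker, had 113, 108 and 96.0 FPKM in wild-type and 99.2, 135 and 101 FPKM in Plekhg5-deficient nerves. These neighbours in the order could not be separated by level, since Gabarapl1 was above Map1lc3b in 4 nerves and below it in the nerves numbered 5 of both genotypes. Gabarapl2 was lowest in each nerve, with 81.8, 65.5 and 51.3 FPKM in wild-type and 74.3, 108 and 78.6 FPKM in Plekhg5-deficient nerves.

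All 5 genes had overlapping genotypes, and 4 of them, all but Gabarap, were highest in Plekhg5-deficient nerve 3. Their log2 fold changes ran from 0.07 for Map1lc3b to 0.39 for Gabarapl2 (SE 0.24, limma adjusted p = 0.974). All 5 were above 0 with scaled values, but 2 of 5 with FPKM as deposited, where 4 were above the median of all genes, and 2 of 5 without Plekhg5-deficient nerve 3. Without Plekhg5-deficient nerve 5 the value of Gabarapl1 was 0.55 in place of 0.22, and without nerve 3 it was -0.02. The family's sum was 1080 ± 70.4 FPKM in wild-type and 1187 ± 191 FPKM in Plekhg5-deficient nerves (SD, n = 3 each), a difference smaller than the larger SD.

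**Figure D3:**
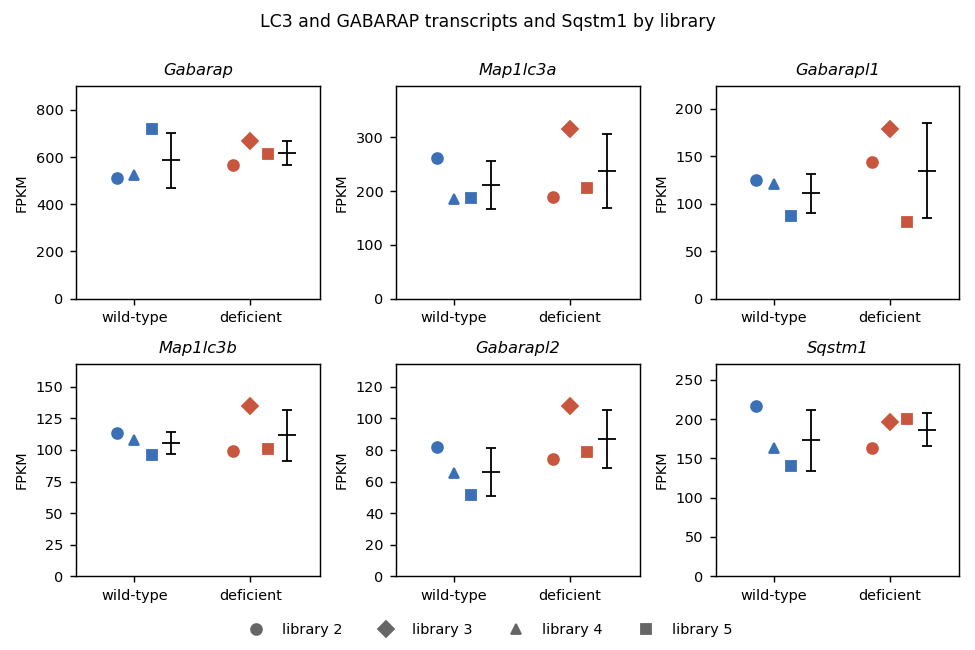
Scaled FPKM of the 5 LC3 and GABARAP genes and Sqstm1 in each sciatic nerve, with wild-type in blue, Plekhg5-deficient in red, the symbol giving the library number, and the mean ± SD of 3 beside the points. The genotypes overlap in each panel, and Plekhg5-deficient nerve 3 is highest for Map1lc3a, Map1lc3b, Gabarapl1 and Gabarapl2.

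The ATG4 proteases cut LC3 and GABARAP precursors and release them from membranes. Atg4b, the main one of the family, had 8.48, 8.48 and 7.36 FPKM in wild-type and 10.3, 10.03 and 7.23 FPKM in Plekhg5-deficient nerves. Atg4c had 5.74, 6.62 and 3.89 FPKM in wild-type and 5.98, 5.93 and 3.73 FPKM in Plekhg5-deficient nerves. In both genes the nerves numbered 5 were the lowest of their genotype. The 4 proteases had differences between -0.04 (Atg4c) and 0.21 (Atg4d) on the log2 scale, with overlapping genotypes.

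Cargo receptors bind the cargo and LC3 at once. Sqstm1, also called p62 and itself degraded by autophagy, had 216, 163 and 140 FPKM in wild-type and 163, 197 and 200 FPKM in Plekhg5-deficient nerves. Wild-type nerve 2 was highest and wild-type nerve 5 lowest, so the Plekhg5-deficient values lay inside the wild-type range. The log2 fold change was 0.13 with a standard error of 0.23 and a 95% interval from -0.41 to 0.67, and it lay between -0.07 and 0.30 over the alternatives tried. Tax1bp1, a receptor for ubiquitinated cargo, had 59.9, 53.1 and 52.4 FPKM in wild-type and 64.7, 69.4 and 56.3 FPKM in Plekhg5-deficient nerves. Its genotypes overlapped through Plekhg5-deficient nerve 5 alone. All 6 receptors and adaptors had differences above 0, from 0.11 (Nbr1) to 0.23 (Wdfy3), but 4 of 6 with FPKM as deposited, where all 6 were above the median of all genes, and 3 of 6 without wild-type nerve 5, the fewest over the alternatives.

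Bnip3 and Bnip3l are receptors in the outer mitochondrial membrane that hand mitochondria to autophagosomes, with Bnip3 known to be induced by hypoxia and Bnip3l known for clearing mitochondria from maturing red blood cells. Bnip3, on chromosome 7 from 138890836 to 138909519, had 91.7, 66.1 and 111 FPKM in wild-type and 103, 107 and 232 FPKM in Plekhg5-deficient nerves. Plekhg5-deficient nerve 5 was 2.09 times the next nerve, and the other values overlapped. The log2 fold change was 0.64 (standard error 0.37), the largest of the 44 genes, and 0.26 without that nerve. Bnip3l had 47.0, 66.9 and 65.1 FPKM in wild-type and 49.1, 50.1 and 86.5 FPKM in Plekhg5-deficient nerves. It was highest in the same nerve, with a difference of 0.02 on the log2 scale and of -0.24 without it.

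Beside these values stand the markers of other tissues in the same nerves. The 14 skeletal muscle markers summed to 23228, 3634 and 16172 FPKM in wild-type and 3230, 386 and 58798 FPKM in Plekhg5-deficient nerves. The erythroid markers summed to 12507, 8768 and 24325 FPKM in wild-type and 7951, 4001 and 230019 FPKM in Plekhg5-deficient nerves. Both sums, like both mitophagy receptors, were highest in Plekhg5-deficient nerve 5, and no marker of either list was at 0 in any nerve. Their part in the levels of Bnip3 and Bnip3l was not tested.

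**Figure D4:**
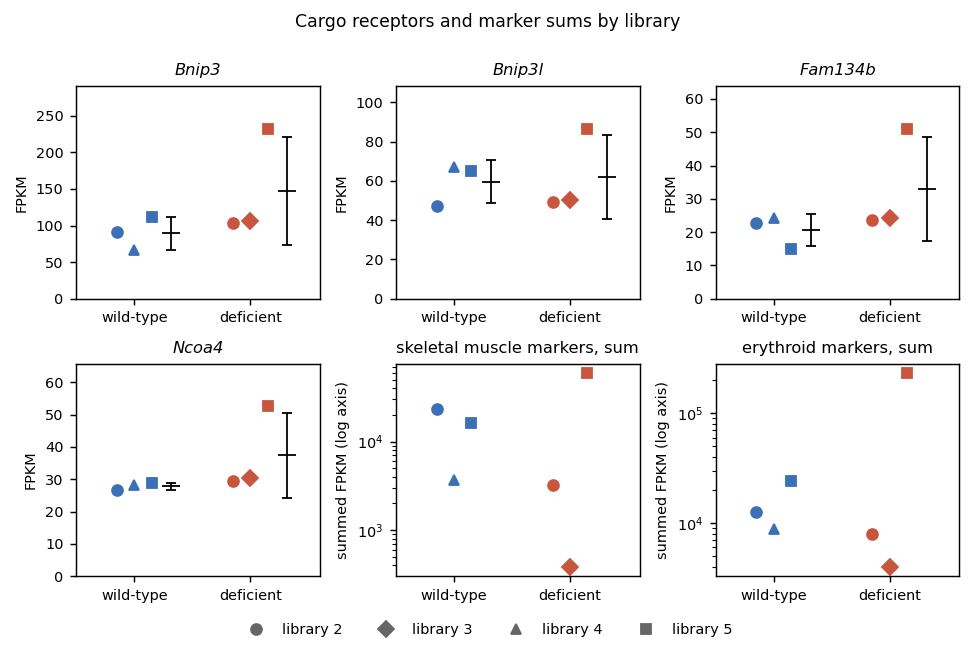
Scaled FPKM of the receptors Bnip3, Bnip3l, Fam134b and Ncoa4 in each nerve with the mean ± SD of 3 per genotype, and the summed FPKM of 14 skeletal muscle and 9 erythroid markers on log axes. Plekhg5-deficient nerve 5 is the highest in all 6 panels, at 232 FPKM for Bnip3 and 230019 FPKM for the erythroid sum.

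Epg5, which tethers autophagosomes to lysosomes, was low in every nerve, with 1.59, 1.30 and 1.52 FPKM in wild-type and 1.54, 1.59 and 1.96 FPKM in Plekhg5-deficient nerves. The genotypes overlapped, with a log2 fold change of 0.13.

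The transcription factors Tfeb and Tfe3 switch on autophagy and lysosome genes when they enter the nucleus. Tfe3, on chromosome X from 7762560 to 7775202, had 13.8, 14.3 and 14.6 FPKM in wild-type and 9.96, 13.4 and 9.74 FPKM in Plekhg5-deficient nerves. The genotypes did not overlap, but Plekhg5-deficient nerve 3 lay close to the wild-type nerves and apart from the others of its genotype. The mean was 1.29-fold lower (11.0 ± 2.07 against 14.2 ± 0.441 FPKM, SD, n = 3 each), with a log2 difference of -0.35 (SE 0.18, limma adjusted p = 0.974). Without Plekhg5-deficient nerve 3 it was -0.49 with an adjusted p of 0.956 from limma.

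Tfeb, on chromosome 17 from 47737030 to 47792419, had 15.5, 14.9 and 24.0 FPKM in wild-type and 10.3, 10.2 and 18.2 FPKM in Plekhg5-deficient nerves. In both genotypes the nerve numbered 5 was highest, and Plekhg5-deficient nerve 5 lay above wild-type nerves 2 and 4, so the genotypes overlapped. Its log2 fold change was -0.48 (SE 0.29, limma adjusted p = 0.974), and it lay between -0.73 and -0.27 with 1 library left out. The summed macrophage markers were also highest in the nerves numbered 5, at 395 FPKM in wild-type and 481 FPKM in Plekhg5-deficient nerves against at most 244 FPKM in the others, and their part in the level of Tfeb was not tested. For a single gene such as Ulk2 or Tfe3, the smallest p of a two-sided exact permutation test is 0.1 with 3 nerves per genotype.

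**Figure D5:**
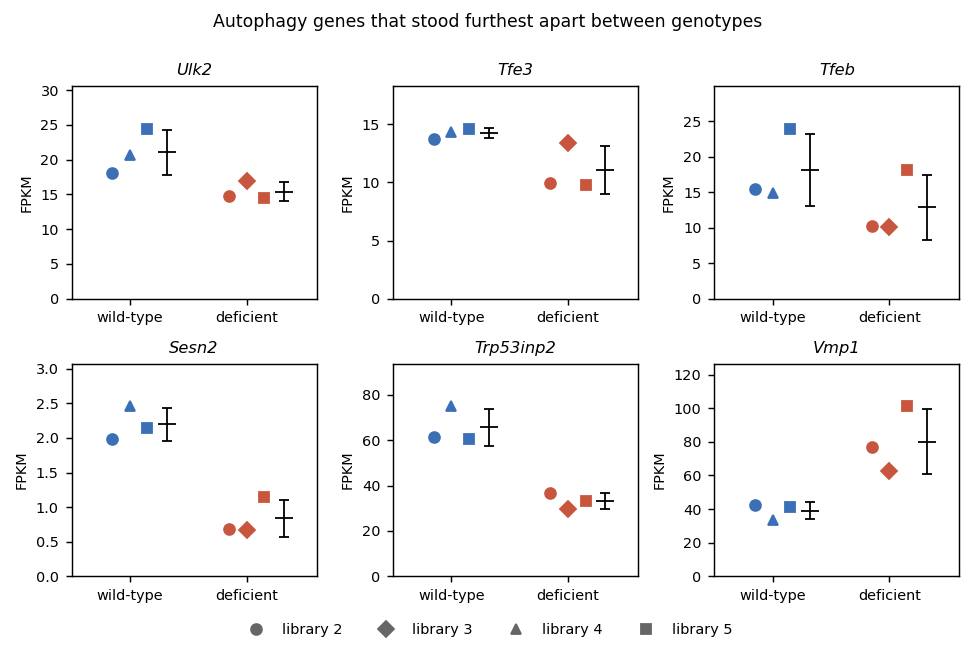
Scaled FPKM of the kinase Ulk2, the transcription factors Tfe3 and Tfeb and the further autophagy genes Sesn2, Trp53inp2 and Vmp1 in each nerve, with wild-type in blue, Plekhg5-deficient in red, the symbol giving the library number, and the mean ± SD of 3. Genotypes are apart in each panel except Tfeb, where Plekhg5-deficient nerve 5 lies among the wild-type nerves.

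Tfeb and Tfe3 are known to bind sites built around CACGTG, and the promoters of the 44 genes were searched for these letters because both factors had lower mean levels. The windows were RefSeq promoters of assembly GRCm38.p6, from 250 bases before to 50 bases after each start, and 35 of the 44 genes had at least 1 window, 42 windows in all. CACGTG, which reads the same on both strands, occurred in 5 of the 42 windows (11.9%), those of Atg14, Atg3, Atg5, Atg7 and Bnip3, compared with 7.15% of 32851 windows over all genes. The longer GTCACGTG, searched on both strands and always holding CACGTG, occurred in 3 of the 42 (7.14%), compared with 2.25% of all windows. These 3 stretches are shown with CACGTG in capitals.
Atg14, strand -, chr14:47568428-47568459, across its start: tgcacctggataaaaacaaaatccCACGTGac
Atg3, strand +, chr16:45158711-45158787, before its start: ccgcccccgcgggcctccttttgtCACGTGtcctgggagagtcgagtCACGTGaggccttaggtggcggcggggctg
Atg7, strand +, chr6:114670940-114670993, before an alternative start inside the gene: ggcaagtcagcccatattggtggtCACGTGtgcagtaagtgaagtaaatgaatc
In Atg14 the letters begin 1 base before the start, in Atg3 they occur at 94 and 71 bases before it, and in Atg7 at 132 bases before it. The log2 fold changes of the 3 genes were 0.09 (Atg14, SE 0.17), 0.25 (Atg3, SE 0.23) and 0.10 (Atg7, SE 0.20). A match is a description of the letters in the window and does not show a site in use.

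A further 56 genes of the pathway that are not among the 44, such as upstream kinases, further receptors and fusion factors, held 0 lower and 0 higher genes by the same limma threshold. Their median log2 fold change was 0.0042. At an unadjusted p under 0.05, 2 were lower and 1 was higher, beside 2.69% and 2.41% of all genes tested. The genotypes did not overlap in 4 of the 56 with lower and 6 with higher values in Plekhg5-deficient nerves, beside 5.88% and 5.69% of all genes.

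Trp53inp2, which shuttles from the nucleus to autophagosomes and helps recruit LC3, had 61.6, 75.0 and 60.5 FPKM in wild-type and 36.6, 29.8 and 33.1 FPKM in Plekhg5-deficient nerves. The genotypes were well apart, with a 1.98-fold lower mean in Plekhg5-deficient nerves and a log2 difference of -0.96 (SE 0.17, limma adjusted p = 0.447). Sesn2, a stress-induced protein that restrains mTOR complex signaling, had 1.98, 2.46 and 2.15 FPKM in wild-type and 0.682, 0.673 and 1.15 FPKM in Plekhg5-deficient nerves. It was 2.63-fold lower, with a log2 difference of -0.81 (SE 0.18, limma adjusted p = 0.573). Both stayed below 0 in every alternative tried.

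Vmp1, a scramblase of the endoplasmic reticulum that is needed for the phagophore to form, had 42.4, 33.3 and 41.2 FPKM in wild-type and 76.8, 62.5 and 101 FPKM in Plekhg5-deficient nerves. All Plekhg5-deficient nerves were above all wild-type nerves, and the mean was 2.06-fold higher, with a log2 difference of 1.002 (SE 0.22, limma adjusted p = 0.573). The processed pseudogene Gm11478 lies within Vmp1 on the same strand, on chromosome 11 from 86630428 to 86631026. Gm11478 had 155, 129 and 275 FPKM in wild-type and 269, 270 and 378 FPKM in Plekhg5-deficient nerves, overlapping through wild-type nerve 5. No source used here gives how reads were divided between Vmp1 and Gm11478, and its part in the level of Vmp1 was not tested.

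The most abundant of the upstream regulators were Atf4, a stress-response transcription factor, between 62.6 and 91.7 FPKM, and Rheb, the GTPase that activates mTOR, between 32.1 and 47.0 FPKM. The most abundant further receptors were Pink1, a kinase that flags damaged mitochondria, between 58.0 and 79.5 FPKM, and Fkbp8, a mitochondrial receptor, between 40.7 and 82.6 FPKM. All 4 had overlapping genotypes. Of the fusion genes, Vamp8, a SNARE protein, lay between 76.7 and 134 FPKM with overlapping genotypes. Rab7, a GTPase of late endosomes and a regulator of their fusion with lysosomes, had 147, 146 and 128 FPKM in wild-type and 151, 163 and 172 FPKM in Plekhg5-deficient nerves. The Rab7 genotypes did not overlap, by a margin of 151 to 147 FPKM, with a log2 difference of 0.21 (SE 0.17, limma adjusted p = 0.974).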

How the data were processed

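RNA from 6 sciatic nerves, 3 per genotype, was analysed. The authors trimmed reads with Trim Galore 0.4.0, mapped them to GRCm38 with STAR and estimated FPKM per gene and library with Cufflinks 2.2.1, and deposited 1 FPKM table per library without counts. No source used here gives the read depth, annotation release, strand setting or treatment of reads that match several places. Where an identifier was listed more than once (19 cases), its FPKM were added up. Each library was divided by its median-of-ratios factor, which was 0.745 for Plekhg5-deficient nerve 5 and between 0.991 and 1.12 for the others. The model was limma 3.58.1 (R 4.3.3) on log2(FPKM + 1) with a variance trend and 1 term, genotype, and Benjamini-Hochberg adjustment covered the 21285 genes whose mean reached 0.1 FPKM in either genotype. The fit was tested on simulated data with noise drawn from the fitted model and planted changes larger than any seen in the 44. That test cannot tell how well small differences would be found. Of the 44 genes, 9 overlap another expressed gene, 1 of them, Atg16l1, on the same strand. The half-width of the Cufflinks 95% interval was under 10% of the FPKM in all libraries for 11 of the 44 and over 50% in some library for Atg9b and Atg16l2.

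The 44 genes, the lists and the tests were chosen with earlier results of these data known. Genes were named by a rule: Plekhg5, those of the 44 called, at an unadjusted p under 0.05 or without overlap between genotypes, the LC3 and GABARAP genes, Sqstm1, the further autophagy genes called or at an unadjusted p under 0.05, and the 2 genes per role or list with the highest mean. Ulk1, Fam134b, Ncoa4, Prkaa2, Sh3glb1, Gm11478 and genes given as the end of a range or beside a motif were added after their values were seen. The study counts 3 animals per genotype. The alternatives changed the pseudocount (0.1, 0.5), the minimum (1 FPKM, none), the scaling (as deposited, upper quartile), the variance model (no trend, array weights), the genes (status OK), the design (replicate block) or the libraries (leaving some out).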

Additional observations from a re-analysis of the deposited data

How the results depend on the processing

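At an adjusted p under 0.05 from limma, 0 of the 44 autophagy genes were called in either direction under each of the 17 alternatives, and the lowest adjusted p was 0.375 (Ulk2, array weights). At most 3 passed an unadjusted p of 0.05 in 1 direction, Ulk2, Tfeb and Tfe3 with array weights. The median difference of the 44 on the log2 scale was 0.094, -0.048 with FPKM as deposited, and between 0.035 (without Plekhg5-deficient nerve 3) and 0.113 (without wild-type nerve 2) with 1 library left out. Of the 44, 28 changed sign in at least 1 alternative and 16 did not. Over all genes, the 2 called lower became 1 with a pseudocount of 0.1, 1 with a minimum of 1 FPKM, 0 with no minimum, 8 with array weights, 0 without both libraries numbered 5, and 0 in each case with 1 library left out. The 6 called higher became 2 with no minimum, 14 with array weights, and between 0 (without wild-type nerve 4) and 8 (without Plekhg5-deficient nerve 5) with 1 library left out. Of genes at an unadjusted p under 0.05, the lower ones made up 52.7%, or 75.9% for FPKM as deposited. With the library numbers as a replicate block, 0 genes were called in either direction and the median of the 44 was 0.051. In that fit only the nerves numbered 2 and 5 bear on the genotype difference, because numbers 3 and 4 each occur in a single genotype. Little is left to estimate the spread from, so the absence of calls there says little. The labels do not say that the numbers pair animals. The deviations of nerves of the same number correlated at 0.073 (number 2) and 0.58 (number 5). Between genotypes, nerves of different numbers correlated at -0.52 (wild-type 4 with Plekhg5-deficient 5) to 0.46 (wild-type 4 with Plekhg5-deficient 2). The cause of the changes between alternatives was not tested. The number of 3 libraries per genotype without counts limits the precision, with a median standard error of 0.214 for the 44 on the log2 scale.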

Other observations

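Some further autophagy genes, singled out after their values were seen, were highest in Plekhg5-deficient nerve 5, as were 22.6% of all genes tested. They are examples, and others of the 56, such as Sh3glb1 at 87.6 FPKM, were highest there too. Fam134b, a receptor for endoplasmic reticulum, had 22.8, 24.1 and 15.1 FPKM in wild-type and 23.8, 24.3 and 51.0 FPKM in Plekhg5-deficient nerves 2, 3 and 5. Ncoa4, the receptor for ferritin, had 26.6, 28.1 and 28.7 FPKM in wild-type and 29.3, 30.4 and 52.6 FPKM in Plekhg5-deficient nerves. Prkaa2, a catalytic subunit of AMPK, had 9.99, 3.67 and 6.86 FPKM in wild-type and 4.01, 4.12 and 17.6 FPKM in Plekhg5-deficient nerves. For Ncoa4 the genotypes did not overlap, and for the other genes they did. The log2 fold changes were 0.59 (Fam134b), 0.36 (Ncoa4) and 0.08 (Prkaa2), with adjusted p of 0.974, 0.974 and 0.999 from limma. Without Plekhg5-deficient nerve 5 they were 0.24 (Fam134b), 0.098 (Ncoa4) and -0.55 (Prkaa2). The muscle and erythroid markers were highest in the same nerve, and their part in these levels was not tested.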
